A study of Mus musculus with 4 samples.

Results

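The MHC class II presentation genes examined here were the 10 genes H2-Aa, H2-Ab1, H2-Eb1, H2-DMa, H2-DMb1, H2-DMb2, H2-Oa, H2-Ob, Cd74 and Ciita, taken by symbol from the 55367 gene rows of each count table. All 10 were found and all 10 passed the filter on low counts, which left 11837 genes in the test. RNA was measured in 4 libraries of polyadenylated RNA from B16-F10 tumors, a mouse melanoma line grown under the skin, 2 libraries labeled WT and 2 labeled KO. The study's methods give C57BL/6 as the strain of WT mice and describe young adult animals of mixed sexes, on average over the study. The series' design names mice whose Satb1 F/F alleles are deleted either by ThPOK-cre, active in CD4 lineage T cells, or by E8I-cre, active in mature CD8 T cells, and the labels do not give the driver or the animals' age for either KO library. In neither model is the deletion directed at macrophages, dendritic cells or B cells. Both groups carried the same tumor line and the same sort, and whether each library came from 1 animal or from pooled animals is not given, so p-values measure the spread between these libraries only.

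MHC class II molecules are pairs of an alpha and a beta chain that carry peptides from the endosome to the cell surface, where CD4 T cells read them. The invariant chain Cd74 fills the groove of newly made pairs, H2-DM exchanges its remnant for other peptides, and H2-O inhibits H2-DM. The coactivator Ciita switches class II genes on by joining factors already bound to their promoters. In mice the set is a property of macrophages, dendritic cells and B cells, and resting mouse T cells carry little of it.

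Sorting was for CD45.2+CD8+ cells per the labels, and the defining markers were checked against that gate. The list of 9 T cell markers took 0.00637% and 0.0101% of gene counts in the WT libraries and 0.161% and 0.11% in the libraries labeled KO, whereas 13 macrophage or monocyte markers took 2.40% to 4.10% of them in all 4. By its markers the labeled cell type was thus nearly absent from the WT libraries, and in every library the macrophage list held far more counts than the T cell list. Satb1, the targeted gene, had 7 and 5 counts in WT and 131 and 55 in the libraries labeled KO (log2 fold change 3.36, SE 0.79, adjusted p = 0.115, 0.0137 by DESeq2), the opposite direction to the label. With 1 library left out, a fit in which the spread comes from the other group alone and the lone library is assumed to vary like it, Satb1 passed without KO 2 (adjusted p = 0.00942) and not without KO 1 (log2 fold change 2.51, adjusted p = 0.221), WT 1 (0.12) or WT 2 (0.191). Each direction given here is for "libraries labeled KO" for that reason. Xist, the RNA of the inactive X chromosome, had 435 and 216 counts in WT and 0 and 3 in the libraries labeled KO, and the Y-linked Ddx3y had 0 and 0 against 188 and 81, so sex and label cannot be told apart. Gene counts ran from 4017875 to 5382915 per library, and 3 counts were worth 0.521 to 0.897 normalized CPM, the unit of level used here (CPM on TMM-scaled library sizes).

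**Figure D1:**
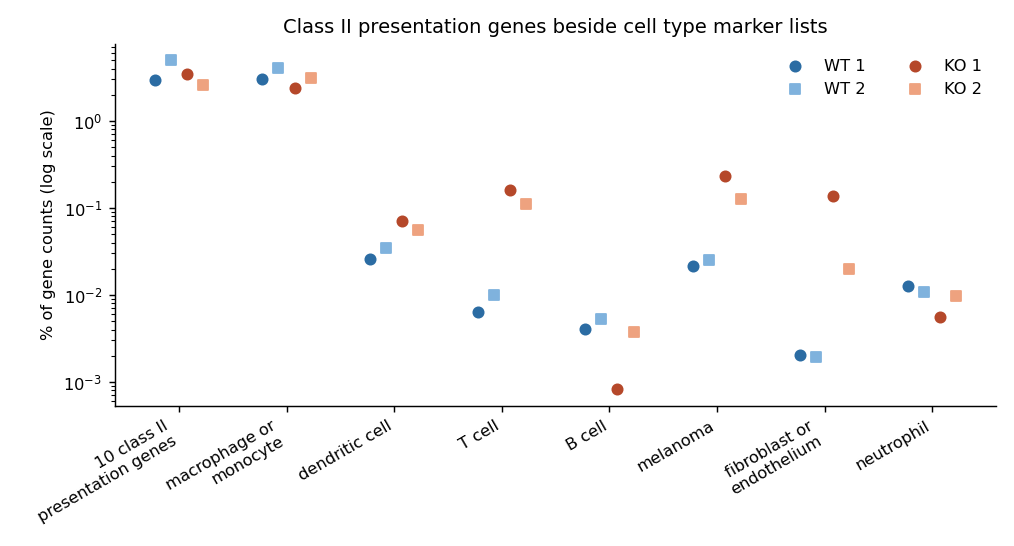
Percent of gene counts, on a log scale, that fell on the 10 class II presentation genes and on each cell type marker list; each point is 1 library. The class II genes took 2.57% to 4.97% of gene counts, close to the macrophage list at 2.40% to 4.10%, while the T cell, melanoma and fibroblast or endothelium lists were higher in both libraries labeled KO.

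Of the class II genes 8 lie together on chromosome 17 of mm10, and class II promoters are known to be read through an X box bound by RFX, followed by a Y box bound by NF-Y. Stretches of 5 promoters are shown because they hold these letters at nearly the same spacing in genes whose RNA levels differed widely. They are RefSeq windows of GRCm38.p6, each printed 5′ to 3′ on the strand of its gene. Capitals mark AAC, letters within the X box, and TGATTGG, the Y box.
H2-Oa, chr17:34092297-34092348, plus strand: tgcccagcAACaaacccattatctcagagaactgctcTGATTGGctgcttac
H2-DMb2, chr17:34145120-34145171, plus strand: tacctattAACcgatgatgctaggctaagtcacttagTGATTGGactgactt
H2-Ob, chr17:34238812-34238860, plus strand: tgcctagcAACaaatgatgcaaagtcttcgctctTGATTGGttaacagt
H2-Aa, chr17:34287859-34287910, minus strand: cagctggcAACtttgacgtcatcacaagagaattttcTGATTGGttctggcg
H2-Eb1, chr17:34305770-34305820, plus strand: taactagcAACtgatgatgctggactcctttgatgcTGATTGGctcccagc

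The letters between AAC and TGATTGG numbered 26 in H2-Oa, H2-DMb2 and H2-Aa, 25 in H2-Eb1 and 23 in H2-Ob, and 26 also in H2-DMb1, where the stretch lies within an annotated exon. The last 9 bases of the H2-Oa stretch lie in an exon of H2-Oa. In H2-Oa a second AAC overlaps the same run 22 letters before TGATTGG, and the outer one was marked. TGATTGG, searched on both strands, was found in 6 of the 8 windows that the table holds for 7 of the genes. Both windows of H2-DMa lacked it. Over all 32851 windows of the same length the share was 7.82%, and AAC followed by 22 to 30 bases and TGATTGG was found in 6 of the 8 windows against 0.922% of all. These letters and this spacing were chosen after reading the promoters, so the shares are a description. H2-Aa and H2-Oa, both with this pair of letters, had mean normalized CPM values of 5055 and 9.42.

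**Figure D2:**
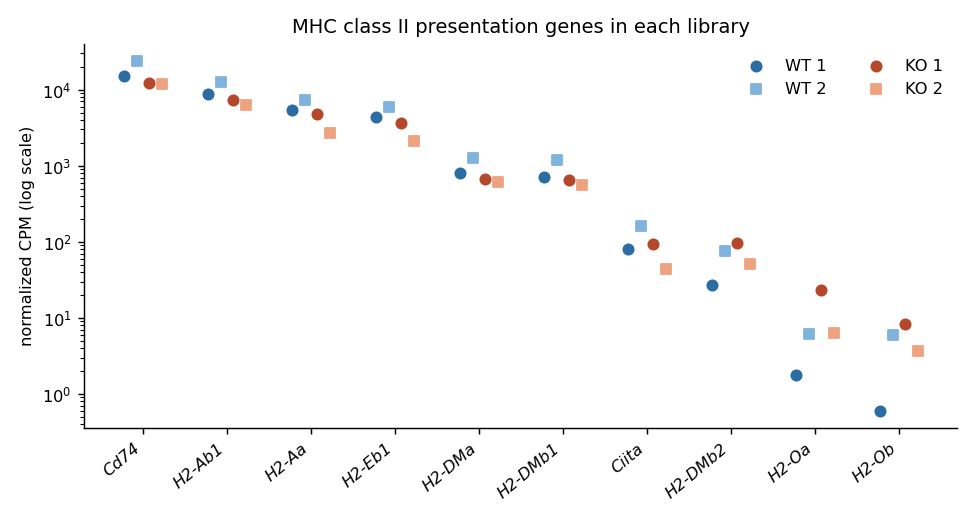
Normalized CPM, on a log scale, of each of the 10 class II presentation genes; each point is 1 library. Cd74, H2-Ab1, H2-Aa and H2-Eb1 lay between 2108 and 23529, H2-DMa and H2-DMb1 between 561 and 1252, and H2-Oa and H2-Ob at 23.5 or less, with WT 1 lowest for H2-DMb2, H2-Oa and H2-Ob.

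Levels of the genes spread over 4 orders of magnitude per length. Divided by the exon bases of each gene in GENCODE M21, mean normalized CPM per kb was 9300 for Cd74, 3403 for H2-Ab1, 2065 for H2-Eb1, 1331 for H2-Aa, 464 for H2-DMb1 and 242 for H2-DMa. It was 35.8 for H2-DMb2, 9.99 for Ciita, 6.70 for H2-Oa and 0.859 for H2-Ob. The order of H2-Eb1 over H2-Aa and of H2-DMb1 over H2-DMa held within every library although their ranges over libraries overlapped. Ciita and H2-Oa were not ordered beyond their spread, at 4.66 to 17.1 and 1.28 to 16.7. By count alone Cd74 was the most abundant gene of WT 2 and ranked 6, 2 and 2 in WT 1, KO 1 and KO 2.

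None of the 10 class II presentation genes passed the test between the libraries labeled KO and WT. Of the 10 tested, 0 passed the adjusted threshold in edgeR's quasi-likelihood test, beside 0.574% of all genes tested, and 0 had an unadjusted p under 0.05, beside 13.7%. DESeq2 and each other fit tried likewise called 0 of the 10. Fold changes were below 0 for 7 genes and above 0 for 3, with a median log2 fold change of -0.68 beside 0.05 over all genes. With library totals in place of TMM factors the median of all genes moved by 0.33, and that of the 10 genes was -0.36. Their median was -1.03 without WT 1, with 1 gene above 0, and -0.34 without WT 2. When libraries were scaled to antigen presenting cell markers 8 of the 10 were above 0. That scaling moved all genes up, to a median of 0.76 over all genes and 0.064 over the 10. Groups did not overlap for 7 of the 10, beside 47.9% of all genes, and 6 of those were lower in the libraries labeled KO, beside 22.6%. Non-overlap of normalized CPM, here and below, is that of TMM-scaled values. As shares of gene counts, without TMM factors, Cd74 took 1.24% and 2.24% in WT and 1.44% and 1.26% in the libraries labeled KO. The 3 classical chains took 1.55% and 2.47% against 1.85% and 1.18%, and the 3 H2-DM genes 0.129% and 0.239% against 0.167% and 0.131%. On this scale these groups overlapped. The smallest fold change that any gene passed with was 3.15 on the log2 scale in this fit. In bulk RNA, fewer cells of a type and less RNA per cell cannot be told apart.

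**Figure D3:**
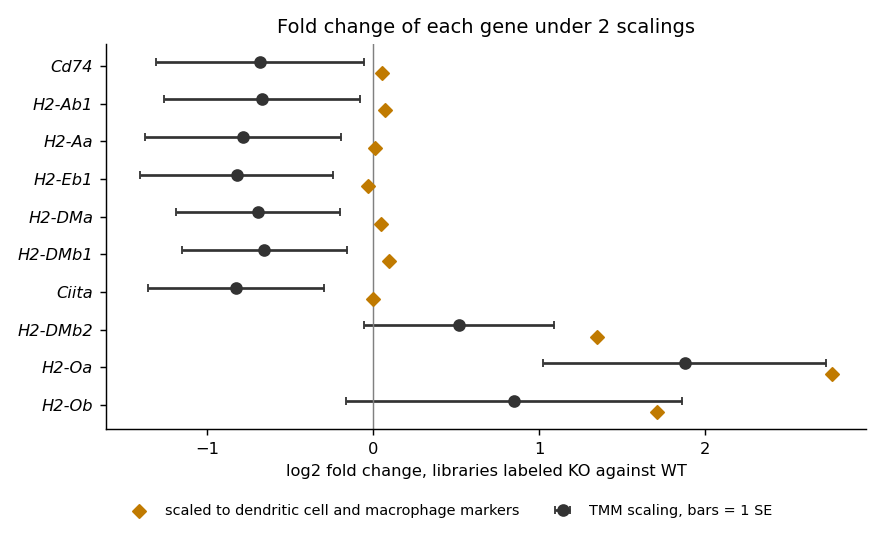
Log2 fold change of each class II presentation gene, libraries labeled KO against WT; circles are the TMM-scaled edgeR fit with bars of 1 SE, diamonds the same fit scaled to dendritic cell and macrophage markers. Under TMM 7 genes sat between -0.83 and -0.65, and under marker scaling these 7 sat between -0.03 and 0.10 while H2-DMb2, H2-Oa and H2-Ob stood at 1.35, 2.76 and 1.71.

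The classical chains form the 2 mouse isotypes I-A, made of H2-Aa and H2-Ab1, and I-E, to which H2-Eb1 gives the beta chain. H2-Aa (chromosome 17, 34282744 to 34287823, minus strand) had 5424 and 7357 normalized CPM in WT and 4746 and 2691 in the libraries labeled KO. Both WT values were above both others, and the log2 fold change was -0.78 (SE 0.59, adjusted p = 0.581). H2-Ab1 (34257689 to 34269419, plus strand) had 8848 and 12626 normalized CPM in WT and 7246 and 6238 in the libraries labeled KO, also without overlap (log2 fold change -0.67, SE 0.59, adjusted p = 0.646). H2-Eb1 (34305867 to 34316674, plus strand) had 4326 and 5932 against 3693 and 2108 normalized CPM (log2 fold change -0.82, SE 0.58, adjusted p = 0.553). For all 3 the largest value was in WT 2 and the smallest in KO 2.

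Ratios between these chains differed between libraries. H2-Aa counts per H2-Ab1 count were 0.613, 0.583 and 0.655 in WT 1, WT 2 and KO 1 but 0.431 in KO 2, and H2-Eb1 counts per H2-Ab1 count were 0.489, 0.470 and 0.510 but 0.338 in KO 2. KO 2 was the low library in both ratios, and its group mate KO 1 was the high one. C57BL/6 mice are known to lack surface I-E because their H2-Ea promoter carries a deletion, and H2-Ea had only 2 and 6 counts in WT and 41 and 48 in the libraries labeled KO. The pooled ratio was 7.46 with a counting interval of 3.63 to 17.8, and the log2 fold change of 2.90 (SE 0.87) did not pass the test (adjusted p = 0.203, and 0.0297 at the lowest over the alternatives). H2-Eb2, a neighboring beta chain gene, had 0, 1, 24 and 0 counts and was not tested.

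Cd74 (chromosome 18, 60803848 to 60812652) encodes the invariant chain, and alone took 41.5% to 48.8% of the counts of the 10 genes. Its normalized CPM was 14941 and 23529 in WT and 12242 and 11745 in the libraries labeled KO, which did not overlap (log2 fold change -0.68, SE 0.63, adjusted p = 0.666). Cd74 counts per count of the 3 classical chains were 0.803 and 0.908 in WT and 0.780 and 1.06 in the libraries labeled KO, so the groups overlapped. Against H2-Ab1 alone the ratio stayed between 1.69 and 1.88 in all 4 libraries.

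H2-DM consists of an H2-DMa chain and a chain from either H2-DMb1 or H2-DMb2. H2-DMa (chromosome 17, 34119541 to 34139101) had 805 and 1252 normalized CPM in WT and 666 and 608 in the libraries labeled KO (log2 fold change -0.69, SE 0.49, adjusted p = 0.557). H2-DMb1 (34153072 to 34160230) had 721 and 1185 against 650 and 561 normalized CPM (log2 fold change -0.65, SE 0.50, adjusted p = 0.585). Neither gene overlapped between groups, and their ratio was the steadiest of those computed for member genes, at 1.02 to 1.12 counts of H2-DMa per count of H2-DMb1. Brd2, on the other strand, covers 10.4% of the exon bases of H2-DMa, and the strand setting of the counting is not given in the sources used here.

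H2-DMb2 (34143307 to 34151555) departed from its near copy H2-DMb1. It had 27.2 and 75.6 normalized CPM in WT and 96.5 and 50.9 in the libraries labeled KO, and these groups overlapped (log2 fold change 0.52, SE 0.57, adjusted p = 0.726). H2-DMb1 counts per H2-DMb2 count were 26.5 and 15.7 in WT and 6.74 and 11.0 in the libraries labeled KO, with no overlap between groups. Of the 50-base windows of H2-DMb1 transcripts 26.6% also occur in H2-DMb2, so reads there have 2 alignments and can be lost or split, and the values of this pair are uncertain to that extent. Summed, the pair had a log2 fold change of -0.56 (adjusted p = 0.654).

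H2-Oa and H2-Ob, which form the inhibitor of H2-DM and are known mostly from B cells and some dendritic cells, had the lowest mean normalized CPM of the set, not divided by length. H2-Oa (34092340 to 34095234) had 6 and 25 counts in WT and 124 and 36 in the libraries labeled KO, or 1.79 and 6.16 against 23.5 and 6.25 normalized CPM. WT 2 and KO 2 were nearly equal, so the lack of overlap rested on 6.16 against 6.25 (log2 fold change 1.88, SE 0.85, adjusted p = 0.374). Leaving out 1 library moved this fold change between 0.62 and 2.96, and without KO 2 the adjusted p was 0.0524, the lowest of the 10 genes under any alternative. The exons of BC051537, on the other strand, cover 22.8% of H2-Oa. H2-Ob (34238903 to 34254414) had 2, 24, 44 and 21 counts, with WT 2 and KO 2 again close (log2 fold change 0.85, SE 1.01, adjusted p = 0.748). The pooled ratio of H2-Ob was 9.84 against WT 1 alone, with a counting interval of 2.62 to 83.0, and 0.995 against WT 2 alone, so its direction rested on the 2 counts of WT 1.

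**Figure D4:**
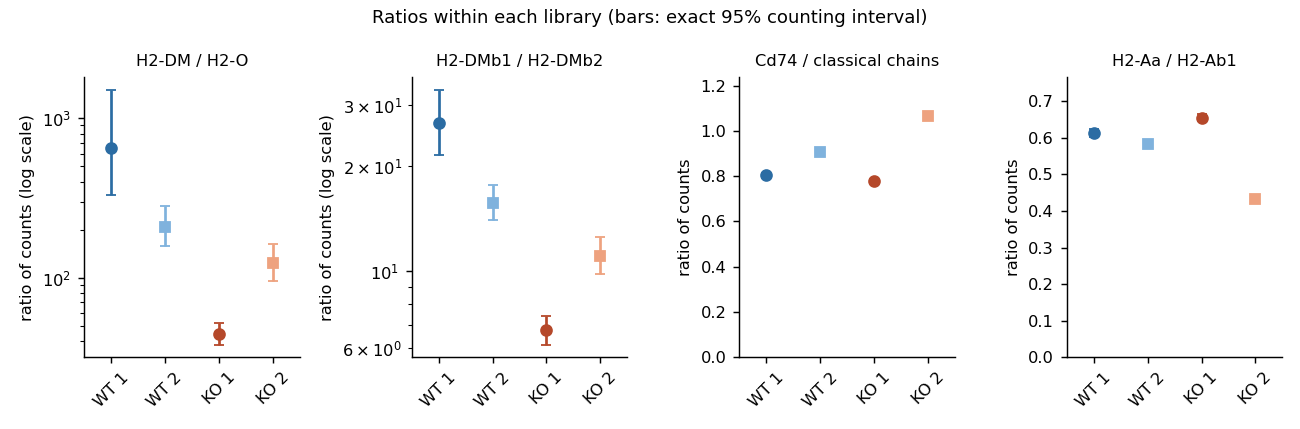
Ratios of counts within each library with exact 95% counting intervals, the left pair of panels on a log scale and the right pair from 0. H2-DM counts per H2-O count and H2-DMb1 per H2-DMb2 were higher in both WT libraries than in both libraries labeled KO, while Cd74 per classical chain and H2-Aa per H2-Ab1 overlapped between groups with KO 2 apart.

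A ratio within a library does not depend on how libraries are scaled. Counts of H2-DM, the sum of its 3 genes, per count of H2-O were 649 (95% interval 329 to 1505) in WT 1 and 208 (157 to 282) in WT 2. They were 44.4 (38.1 to 52.1) in KO 1 and 123 (95 to 163) in KO 2. The groups did not overlap, and the mean difference was -2.31 on the log2 scale, beside a pooled SD of 1.10 between libraries of a group. With 1 library left out it ran from -3.13 to -1.49. The counts of H2-O behind it were 8, 49, 168 and 57, the intervals cover counting error only, and the smallest p that exact permutation of 2 and 2 libraries allows is 0.33.

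Markers of cells that carry H2-O differed in their pattern. Of the B cell markers, Pax5 and Fcer2a had 0 counts in all 4 libraries, which allows up to 0.521 to 0.897 normalized CPM. Most counts of the list were those of Cd79b (61, 182, 12 and 73) and Cd22 (100, 43, 16 and 121), both with fold changes below 0 and not past the threshold, and the list summed to 0.00408% and 0.00528% of gene counts in WT and 0.000826% and 0.00373% in the libraries labeled KO. Cd79a, with 0, 0, 7 and 3 counts, was seen only in the libraries labeled KO, and Ms4a1 had 3, 0, 2 and 4. Neither was tested. The 10 dendritic cell markers summed to 0.0259% and 0.0350% in WT and 0.0704% and 0.0564% in the libraries labeled KO, with 5 of 8 tested above 0 and 1, Ccr7, past the threshold. The 3 below 0 were Clec10a (613, 755, 567 and 679 counts), Itgax (208, 339, 256 and 440) and Batf3 (170, 262, 150 and 75). Ccr7, which T cells also express, had 20, 36, 1363 and 1574 counts, and without it, a choice made after seeing the data, the list summed to 0.0254%, 0.0341%, 0.0399% and 0.0272%, so that the groups overlapped. Zbtb46, a factor of conventional dendritic cells, had 1, 4, 21 and 51 counts (log2 fold change 3.23, adjusted p = 0.223, and 0.0346 with the likelihood ratio test). The part of these cells in the values of H2-Oa, H2-Ob and H2-DMb2 was not tested.

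Ciita (chromosome 16, 10480059 to 10528418), the transactivator, had 80.4 and 163 normalized CPM in WT and 93.0 and 44.5 in the libraries labeled KO. KO 1 lay between the WT libraries, so the groups overlapped (log2 fold change -0.83, SE 0.53, adjusted p = 0.514). Its log2 fold change was -0.29 without WT 2 and -1.46 without KO 1. Counts of the classical chains per Ciita count were 231, 159, 169 and 248 in WT 1, WT 2, KO 1 and KO 2.

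Set beside macrophage markers the classical chains overlapped between groups, and beside dendritic cell markers alone they did not. Both lists together held 124164 counts in WT 1 and 110702 in KO 1, of which the macrophage list gave 123122 and 107550, so the joint list is nearly the macrophage list. Lyz2 had the most counts in it, 29370 and 57521 in WT and 67802 and 58896 in the libraries labeled KO. Sums over the list, and the scaling to it, thus rest heavily on this gene. Macrophage markers were below 0 for 10 of 13 genes (median log2 fold change -0.96), and 8 of the 13 did not overlap between groups, all lower in the libraries labeled KO, beside 22.6% of all genes. Classical chain counts per count of the dendritic cell and macrophage lists together were 0.501 and 0.596 in WT and 0.748 and 0.372 in the libraries labeled KO, where KO 1 was highest and KO 2 lowest. Per count of the dendritic cell list alone the values were 59.7 and 70.6 in WT and 26.3 and 20.9 in the libraries labeled KO, a mean log2 difference of -1.47. Once Ccr7 was taken off the list they were 60.9 and 72.3 against 46.3 and 43.4, a difference of -0.57 that still left the groups apart. When libraries were scaled to both marker lists together in place of TMM, the median of all genes moved by 0.71 and the log2 fold changes of H2-Aa, H2-Ab1, H2-DMa, H2-DMb1 and Cd74 turned from below 0 to 0.0084, 0.073, 0.050, 0.10 and 0.055. The 10 genes together took 2.93% and 4.97% of gene counts in WT and 3.47% and 2.57% in the libraries labeled KO, so that both KO values lay between or below the WT values.

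Of 10 genes for factors that assemble on class II promoters 0 passed the threshold, beside 0.574% of all genes, with 6 above 0 and a median log2 fold change of 0.12. Rfxank, a subunit of the RFX complex, had 92.1 and 61.1 normalized CPM in WT and 45.6 and 40.5 in the libraries labeled KO (log2 fold change -0.83, adjusted p = 0.440). The exons of Nr2c2ap, on the other strand, cover 33.8% of Rfxank. Nfyb, a subunit of NF-Y, had 7.18 and 14.5 against 46.0 and 17.5 normalized CPM (log2 fold change 1.54, adjusted p = 0.328, and 0.0388 without KO 2). Without KO 1 its log2 fold change was 0.68 (adjusted p = 0.621).

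Interferon gamma is the main inducer of Ciita outside professional antigen presenting cells. Of 8 genes of its input 0 passed, beside 0.574% of all genes. Ifng itself had 2.39 and 3.70 normalized CPM in WT and 73.1 and 18.4 in the libraries labeled KO, without overlap, and missed the threshold (log2 fold change 3.89, SE 0.76, adjusted p = 0.0617). It passed without KO 2 (adjusted p = 0.000748), without WT 1 (0.0482), without WT 2 (0.0127) and by DESeq2 (0.000102), and without KO 1 it did not (log2 fold change 2.57, adjusted p = 0.111). Gm49751 covers 26% of its exon bases on the same strand. Irf1, a factor induced by the cytokine, had 375 and 333 against 253 and 343 normalized CPM (log2 fold change -0.25), and Socs1, its feedback inhibitor, had 182 and 84.8 against 65.3 and 61.8 (log2 fold change -1.07, adjusted p = 0.371).

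Of 7 transcription factors of antigen presenting cells 0 passed, beside 0.574% of all genes, with 3 above 0 and 4 below. Zbtb46, given above, had the largest fold change above 0. Spi1, the myeloid factor PU.1, had 814 and 783 normalized CPM in WT and 274 and 421 in the libraries labeled KO (log2 fold change -1.20, adjusted p = 0.319). Its log2 fold change was -1.58 without KO 2 and -0.93 without KO 1. Batf3, a factor of cross-presenting dendritic cells, had 50.8 and 64.6 against 28.4 and 13.0 (log2 fold change -1.48, adjusted p = 0.258). For Batf3 the log2 fold change was -2.15 without KO 1 and -1.06 without KO 2. The edgeR fit with a crossed replicate block, chosen after seeing the data, gave Batf3 an adjusted p of 0.0443.

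Endosomal proteolysis and reduction, which prepare peptides and degrade the invariant chain, had 0 of 10 genes past the threshold, beside 0.574% of all genes, and 9 below 0 (median log2 fold change -0.81), of which 6 were lower in the libraries labeled KO without overlap, beside 22.6% of all genes. Ifi30, the lysosomal thiol reductase, had 578 and 604 normalized CPM in WT and 275 and 273 in the libraries labeled KO (log2 fold change -1.11, adjusted p = 0.321). Fdft1, on the other strand, covers 12.8% of the exon bases of Ctsb. Ctsb, cathepsin B, had 11344 and 7714 against 2061 and 9011 normalized CPM, lowest by far in KO 1 (log2 fold change -0.78, adjusted p = 0.679). Without KO 2 its log2 fold change was -2.25 (adjusted p = 0.0157), and without KO 1 it was -0.086 (adjusted p = 0.942). Sppl2a, which cleaves the last membrane fragment of Cd74, had a log2 fold change of 0.10.

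Of 6 genes of class II turnover 0 passed, beside 0.574% of all genes. Cd83, which protects surface class II from ubiquitination, had 135 and 284 normalized CPM in WT and 207 and 752 in the libraries labeled KO (log2 fold change 1.19, adjusted p = 0.457), and Il10rb, a receptor chain for IL-10, had a log2 fold change of -0.78 (adjusted p = 0.475). Among 4 genes of the T cell side 2 passed, both higher in the libraries labeled KO, beside 0.574% of all genes past the threshold. Cd3e had 7.78 and 10.1 against 111 and 114 normalized CPM (log2 fold change 3.65, adjusted p = 0.0221), and Trac had 6.58 and 16.0 against 199.9 and 99.5 (log2 fold change 3.72, adjusted p = 0.0366). Without WT 1 neither passed, at a log2 fold change of 3.42 (adjusted p = 0.0738) for Cd3e and 3.15 (0.146) for Trac. Cd4, the coreceptor that binds class II, had 1.79 and 7.39 against 0.568 and 6.08 normalized CPM, with the groups overlapping.

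**Figure D5:**
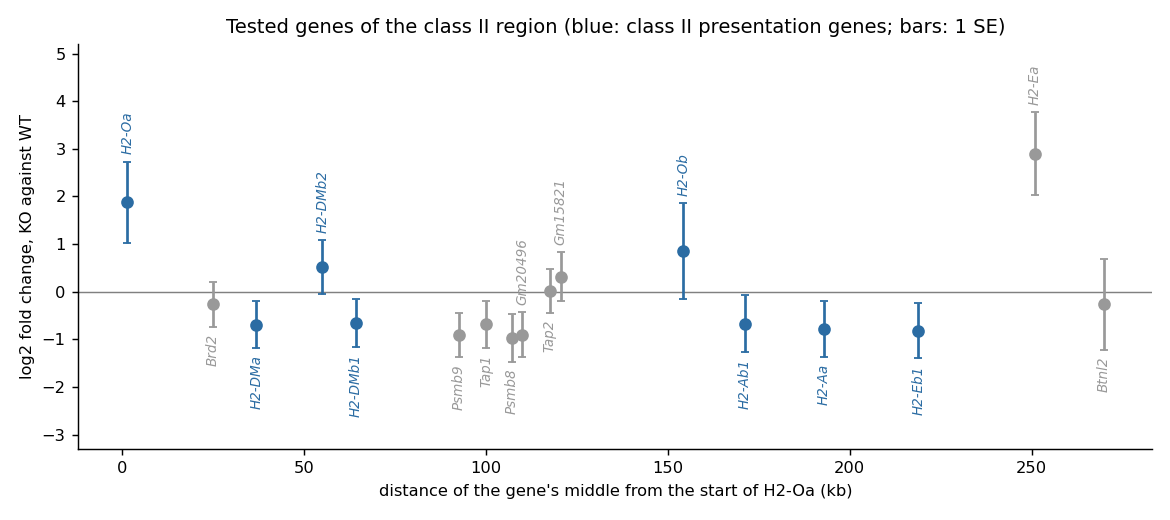
Log2 fold change, libraries labeled KO against WT, of the 17 tested genes of the class II region by distance from the start of H2-Oa in kb; bars are 1 SE and class II presentation genes are blue. Of these genes 11 lay below 0 and 6 above, beside 5610 below and 6227 above over all genes tested, with H2-Oa and H2-Ea highest.

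The class II region from H2-Oa to Btnl2 spans 277 kb of chromosome 17 (34092340 to 34369495). Of its 20 annotated genes with a row in the counts 17 were tested and 0 passed, beside 0.574% of all genes. Genes of class I peptide supply lie inside it, and Psmb8, an immunoproteasome subunit, had 2206 and 1971 normalized CPM in WT and 1135 and 1002 in the libraries labeled KO (log2 fold change -0.97, adjusted p = 0.430). Gm20496, on the other strand and also among the 17, covers 14.7% of the exon bases of Psmb8 (log2 fold change -0.91). H2-Oa and H2-Ea, near opposite ends, had the largest fold changes above 0, and H2-DMb1 and H2-DMb2, which are neighbors, had opposite signs.

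Likeness of profiles over the 4 libraries was described from the same normalized CPM values as the fold changes and is no separate evidence. The root mean square distance of centered log2 normalized CPM to the mean profile of H2-Aa, H2-Ab1, H2-Eb1 and Cd74 was 0.137 for H2-DMa, 0.134 for H2-DMb1 and 0.274 for Ciita. It was 0.776 for H2-DMb2, 1.25 for H2-Ob and 1.38 for H2-Oa, of which the last pair rest on 2 and 6 counts in WT 1. Among 6216 other genes with a mean of at least 20 normalized CPM, Zfp516, Cpsf4, Lyn, Vamp5 and LTO1 were closest, at 0.041 to 0.074. Lyn, a Src family kinase of myeloid and B cells, had 363 and 514 normalized CPM in WT and 286 and 202 in the libraries labeled KO. With 4 points per profile such a distance describes these libraries only.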

How the data were processed

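RNA-seq of polyadenylated RNA was made from 4 tumor libraries, 2 labeled WT and 2 labeled KO by their titles. The authors deposited 1 table of raw counts per library, made per the labels with mm10, HISAT2 2.1.0 and HTSeq 0.11.0. Annotation, strand setting and trimming are not given in the sources used here. Rows naming no gene held 71.2% to 79.5% of reads and were left out. Of 55367 gene rows 53295 matched a GENCODE M21 (GRCm38) symbol, used for positions (1-based) and exon lengths.

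Counts were fitted in R 4.3.3 with edgeR 4.0.16 (filterByExpr, TMM, quasi-likelihood F test, 4 libraries, group as the only term, prior count 0.125). P-values were two-sided and adjusted over all 11837 genes by Benjamini-Hochberg (threshold 0.05), and SE was the size of the log2 fold change divided by the square root of F. The fit was also run on simulated data, and the outcome is not given here. Ratios carry exact 95% Clopper-Pearson intervals. Alternatives were DESeq2 1.42.0, other scalings, filters and tests, a replicate block and each library left out. Text and lists name every class II gene, and of each pathway list the genes past the threshold, the most abundant and those of largest rise and fall. A marker of the B cell list is not reported here. The members and lists were chosen with earlier results of these data known.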

Additional observations from a re-analysis of the deposited data

How the results depend on the processing

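H2-Ob and H2-Ea had 2 counts each in WT 1, under the floor of 3 counts, and their folds against it are uncertain. None of the 10 class II presentation genes passed the threshold under any alternative, and H2-Ea passed with the likelihood ratio test (adjusted p = 0.0297). The 68 genes past it became 136 with library totals only, 583 without a filter, 556 with the likelihood ratio test, 378 with DESeq2 (run on 21241 genes with its own filter), 453 with scaling to antigen presenting cell markers and 113 to 1249 when 1 library was left out. Of 522 fold changes of 34 named genes under alternatives, 484 kept direction and call, 15 reversed, 21 gained the call and 2 lost it (Cd3e and Trac, without WT 1). The cause was not tested.

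Scaling to antigen presenting cell markers gave log2 fold changes of 0.0084 for H2-Aa, 0.073 for H2-Ab1, 0.050 for H2-DMa, 0.10 for H2-DMb1 and 0.055 for Cd74, and library totals only gave 0.078 for Irf1. Leaving out 1 library gave -0.11 to 1.37 for H2-DMb2, -0.056 to 3.20 for H2-Ob, -3.00 to 0.87 for Cd4, -0.057 to 1.83 for Cd83 and -0.44 to 0.76 for Sppl2a. H2-DMb2 summed with H2-DMb1 gave -0.56. Classical chain counts per dendritic cell marker count alone differed by -1.47 on the log2 scale.

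The replicate numbers pair no samples in the labels, and deviations of WT 1 and KO 1 correlated at -0.179. With a replicate block 215 genes passed and 0 of the class II genes, and the crossed replicate block, chosen after seeing the data, gave 647.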
